A study of Xenopus tropicalis with 12 samples.

Results

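The response to thyroid hormone that was left in the hind limb of Xenopus tropicalis tadpoles lacking thyroid hormone receptor α was examined in 6 of the 12 RNA libraries of the study. They were chosen by their labels, as the 3 libraries of TRα (-/-) hind limb with T3 and the 3 without, and no measured value entered the choice. T3 is the active thyroid hormone. It was given at 10 nM for 18 h to tadpoles at about stage 54, and the libraries are labelled stage 52 to 54. The untreated TRα (-/-) tadpoles carried the same knockout and received no T3. The other 6 libraries came from wild type hind limb with and without the same treatment, 3 each, and are used here only to show where the TRα (-/-) response differed. The origin of the wild type tadpoles is given in 2 ways, since the labels say that both genotypes came from the same parents, while the study's methods describe wild type animals as bought from a supplier and the TRα (-/-) animals as offspring of heterozygous frogs. A difference of genetic background between the genotypes can thus not be told apart from the knockout. The knockout was present in the whole animal, so a change in the hind limb could have arisen in the limb or elsewhere in the tadpole. The 3 libraries of a group were technical replicates of RNA merged from several tadpoles. Each group is thus 1 pool, the spread given below is between libraries of that pool, and p-values measure that spread alone. Variation between tadpoles was not measured, and a difference between TRα (-/-) with and without T3 cannot be told apart from a difference between these 2 pools.

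Thyroid hormone acts through nuclear receptors encoded by the TRα and TRβ genes, which sit on target genes in chromatin. Without hormone the receptors hold many target genes down through corepressors, and with hormone they recruit coactivators and the genes are activated. TRα is expressed early in the tadpole and TRβ is itself activated by T3. The hind limb bud is among the first organs to respond at metamorphosis, when it grows and forms digits, muscle and cartilage. TRβ is still encoded in TRα (-/-) tadpoles, so the comparison asked which genes T3 regulates in the hind limb when TRα is missing.

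Total counts ran from 34722053 to 41118242 in the untreated TRα (-/-) libraries and from 32649742 to 43702049 in those with T3, within the range of 32649742 to 52430305 over all 12. Of 19921 genes, 14320 had enough counts to be tested. For pairs of TRα (-/-) libraries from the same pool, chi-square over its degrees of freedom lay between 1.86 and 6.19, above the value of 1 that counting noise gives, and all were kept as separate libraries. The highest such values, 10.7 and 10.3, were those of replicate 2 of wild type with T3. The file identifies genes by Ensembl ID alone, and these IDs could not be paired with gene symbols except for 13 genes of the mitochondrial DNA. The knocked-out gene was therefore not checked in the libraries, the hind limb label was not checked against tissue markers, and none of the 210 symbols of 14 pathway and cell type lists was analysed here. Since whole limbs were measured, fewer cells of a type and less RNA per cell cannot be told apart in any change below.

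T3 treatment of TRα (-/-) tadpoles upregulated 1022 genes and downregulated 1380, which are 7.14% and 9.64% of the genes tested. A gene was called when its Benjamini-Hochberg adjusted p in edgeR's quasi-likelihood test was under 0.05 and its fitted change was 2-fold or more. When libraries were scaled by total counts alone, 1334 genes were upregulated and 1086 downregulated, so which direction had more calls depends on the scaling. Changes of 4-fold or more were found for 111 upregulated (0.775%) and 235 downregulated genes (1.64%), and of 8-fold or more for 23 and 51. In wild type the same rule called 3263 genes upregulated (22.8%) and 3600 downregulated (25.1%). The log2 changes in TRα (-/-) had a median of -0.02 over all genes, and their 5th and 95th percentiles were -1.35 and 1.18. The wild type percentiles lay further out, at -2.72 and 2.65. The median size of the log2 change, whatever its sign, was 0.45 in TRα (-/-) and 0.95 in wild type.

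Small shifts were far more frequent than 2-fold changes. By the adjusted p alone, 5308 genes (37.1%) were higher and 5430 (37.9%) lower with T3, together 75% of the genes tested, since libraries of a pool differed little. All 3 libraries with T3 lay above all 3 without it for 5329 genes (37.2%) and below them for 5443 (38.0%). Among the genes called at 2-fold, this held for 1012 of the 1022 upregulated and for 1352 of the 1380 downregulated genes. The counts at 2-fold thus describe the size of the difference between 2 pools. When the libraries of a pool were summed and an assumed spread between pools entered the test, 703 genes were called upregulated and 861 downregulated at a biological coefficient of variation (BCV, the relative spread beyond counting noise) of 0.2, and 8 and 21 at a BCV of 0.4.

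**Figure D1:**
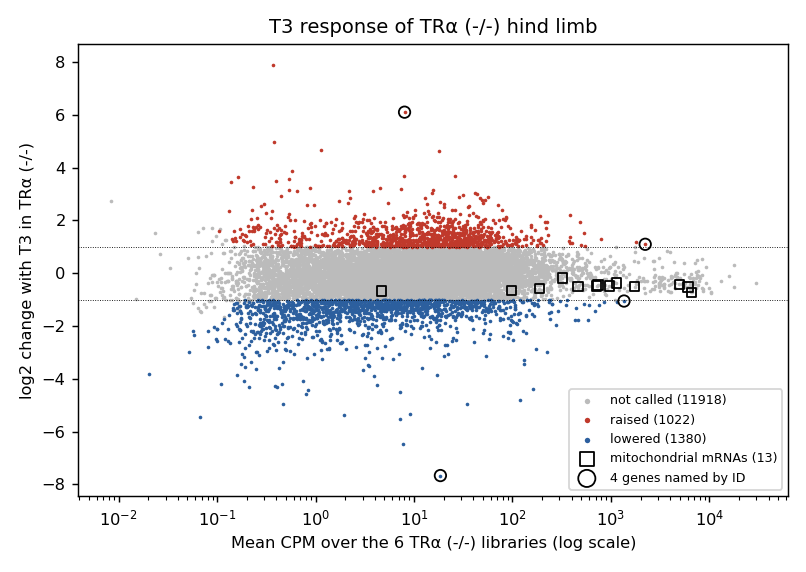
Log2 change with T3 in TRα (-/-) hind limb (vertical axis, as fitted) against the mean level over the 6 TRα (-/-) libraries (horizontal axis, CPM, log scale), 1 point per gene tested. The 1022 upregulated genes lie above the upper dotted line (2-fold) and the 1380 downregulated below the lower, squares mark the 13 named mitochondrial mRNAs, all between the lines and below 0, and circles the 4 genes described by ID.

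The upregulated genes had a median level of 6.86 CPM without T3 and 19.3 CPM with T3, where CPM is the count relative to a common library total (1e+06), with totals scaled by TMM, and a median log2 change of 1.33. The downregulated genes had a median of 4.77 CPM without T3 and 1.63 CPM with it, and a median log2 change of -1.37. Over all genes tested, the median without T3 was 10.8 CPM. Counts in the upregulated genes made up 1.58% ± 0.0058 (SD, n = 3) of each library without T3 and 4.43% ± 0.025 (SD, n = 3) with it. Counts in the downregulated genes went from 3.78% ± 0.065 to 1.56% ± 0.021. Genes called in neither direction held 94.6% and 94.0% of the counts, so the called genes made up a small part of the RNA before and after treatment. Complete on or off changes were rare. Of 14 tested genes with 3 counts or fewer over the untreated pool, 4 were upregulated, against 7.14% of all genes tested, and 0 of these reached 1 CPM. Of 21 with 3 counts or fewer over the treated pool, 16 were downregulated, against 9.64% of all genes, and 0 of these began at 1 CPM or more. Such genes could pass the count filter only through a pool where they were higher, so these counts depend on that filter. Only 3 upregulated genes went from under 1 CPM to 5 CPM or more. In the other direction, 15 downregulated genes went from 5 CPM or more to under 1 CPM.

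No symbol could be given to the genes that changed most, and 4 are described by ID, position and structure. Positions are on scaffolds of the JGI 4.2 assembly, as the file gives them. ENSXETG00000007358, on the plus strand of GL172791.1 from 371501 to 386871 with 13 exon blocks and 2046 bp of exon, showed the largest log2 rise among called genes that reached 5 CPM with no overlap between libraries. It had 9, 5 and 8 counts in the untreated TRα (-/-) libraries and 618, 644 and 503 with T3. The gene was thus close to silent without hormone and moderately expressed with it, at 0.227 ± 0.069 and 15.8 ± 0.46 CPM (SD, n = 3). Its log2 change was 6.10 (SE 0.266, adjusted p = 2.34e-22), a 68.8-fold rise. In wild type it rose from 0.0976 to 15.5 CPM, so both genotypes ended at about the same level on the TMM scale. The log2 change in TRα (-/-) minus that in wild type, the interaction, was -1.16 (SE 0.471, adjusted p = 0.0344), and it rests on the untreated counts, which were 3, 3 and 4 in wild type.

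ENSXETG00000015190, on the minus strand of GL172884.1 from 1301465 to 1311736 with 25 exon blocks and 3439 bp of exon, showed the largest log2 fall by the same rule. Its counts in TRα (-/-) were 1123, 1182 and 1276 without T3 and 7, 7 and 6 with T3. The level went from 36.9 ± 0.55 to 0.180 ± 0.011 CPM (SD, n = 3), a log2 change of -7.66 (SE 0.418, adjusted p = 2.26e-23) or a 203-fold fall. This gene was nearly shut off in both genotypes. Wild type started higher, at 95.9 CPM, and ended at 0.111 CPM, and the interaction was 2.18 (SE 0.615, adjusted p = 0.00279). That end point rests on 2, 0 and 15 counts in the treated wild type libraries, and the TRα (-/-) end point on 7, 7 and 6. The size of the fall in both genotypes and of the interaction is thus uncertain.

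The largest gain in CPM of a called gene of the nuclear genome was that of ENSXETG00000025116, on the minus strand of GL172638.1 from 956730 to 960934 with 6 exon blocks and 1616 bp of exon. A second gene overlaps its exons and had 0 counts in all 12 libraries. Its level in TRα (-/-) was 1402, 1439 and 1418 CPM without T3 and 3132, 3079 and 2908 CPM with T3. The log2 change was 1.1 (SE 0.0298, adjusted p = 5.34e-21), and the gene went from 0.123% to 0.286% of all counts. In wild type it rose from 421 to 3269 CPM, a log2 change of 2.96. The untreated TRα (-/-) pool thus began higher, and the treated pools ended near each other on the TMM scale. The interaction was -1.86 (SE 0.0423, adjusted p = 1.21e-22).

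The largest loss in CPM was that of ENSXETG00000002211, on the minus strand of GL172882.1 from 1463821 to 1467713 with 7 exon blocks and 1238 bp of exon. Its level was 1817, 1840.1 and 1839.5 CPM without T3 and 886, 887 and 879 CPM with T3. The log2 change of -1.05 (SE 0.027, adjusted p = 1.71e-21) lies just past 2-fold, and it was -0.93 when libraries were scaled by total counts alone. In wild type the gene fell from 3869 to 543 CPM, with a log2 change of -2.83. Here the untreated TRα (-/-) pool was lower than wild type and the treated pool higher, and the interaction was 1.78 (SE 0.0382, adjusted p = 3.38e-23). In all 4 genes the untreated TRα (-/-) level lay between the 2 wild type levels.

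**Figure D2:**
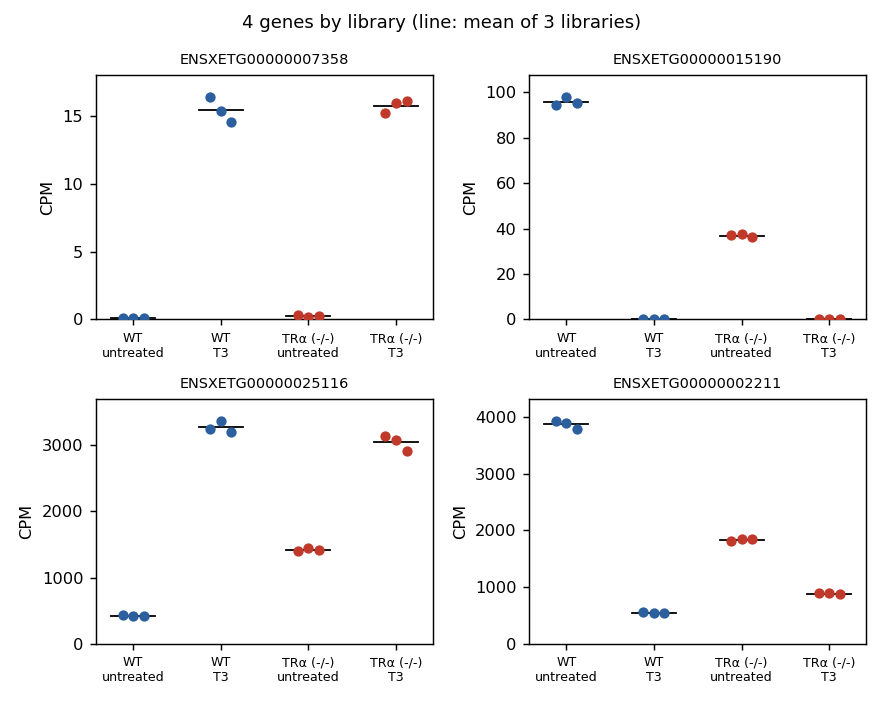
Level of the 4 genes described by ID in each library (CPM, linear axes from 0), with a line at the mean of 3 libraries per group and wild type in blue and TRα (-/-) in red. In each gene the libraries with T3 lie apart from those without it in both genotypes, and the untreated TRα (-/-) libraries lie between the 2 wild type groups.

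The response was uneven over levels and gene structures. Of the 1736 genes with a mean under 1 CPM over the 4 groups, 104 (5.99%) were upregulated and 407 (23.4%) downregulated, against 7.14% and 9.64% of all genes tested. Of the 6736 genes between 10 and 100 CPM, 530 (7.87%) were upregulated and 372 (5.52%) downregulated. The downregulated share was thus the larger among scarce transcripts, and the upregulated share the larger between 10 and 100 CPM. A scarce gene could pass the count filter through its highest pool alone, so the shares among scarce genes depend in part on that filter. Which direction had more calls also depended on the scaling, which was not examined by level. Of the 142 genes at 1000 CPM or more, 2 were called in each direction. The 100 most abundant nuclear genes included 0 called genes by edgeR at 2-fold, with a median log2 change of -0.29, where wild type had -1.71. Of these 100, the 71 with under 1000 bp of exon had a median of -0.38 and the 29 longer genes one of -0.0.

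The share of genes called varied with the number of exon blocks. Of the 184 genes with 50 or more exon blocks, 36 (19.6%) were downregulated and 4 (2.17%) upregulated, with a median log2 change of -0.44 in TRα (-/-) and of -0.44 in wild type. Of the 3505 genes with 16 to 49 blocks, 421 (12%) were downregulated and 203 (5.79%) upregulated. Of the 6545 genes with 6 to 15 blocks, 552 (8.43%) and 511 (7.81%) were. Of the 629 genes with a single block, 86 (13.7%) were downregulated and 58 (9.22%) upregulated, so the share downregulated was high at both ends. By exon length, the 1380 genes of 4000 bp or more had 172 (12.5%) downregulated and 53 (3.84%) upregulated members, and a median log2 change of -0.27. The shortest genes, 144 with under 200 bp of exon, were called often both ways, 25 (17.4%) downregulated and 17 (11.8%) upregulated. Exons shared with another gene were a minor matter, since 25 of the 2402 called genes and 162 of all genes tested had them.

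Most genes called in TRα (-/-) moved the same way in wild type. Of the 1022 upregulated genes, 871 were also called upregulated in wild type and 40 were called downregulated there. Of the 1380 downregulated genes, 977 were called downregulated in wild type and 56 upregulated. Over all genes tested, 22.8% were called upregulated in wild type and 25.1% downregulated. The interaction was tested over all genes. At 2-fold, 2529 genes (17.7%) had a more positive change in TRα (-/-) and 2377 (16.6%) a more negative change. Among the upregulated genes, the rise was at least 2-fold weaker than in wild type for 422 (41.3%), at least 2-fold stronger for 81 (7.93%) and neither for 519 (50.8%). The 422 genes had median log2 changes of 1.42 in TRα (-/-) and 3.20 in wild type. Among the downregulated genes, the fall was weaker for 475 (34.4%), stronger for 252 (18.3%) and neither for 653 (47.3%). The 475 had medians of -1.38 in TRα (-/-) and -3.35 in wild type. The genes were chosen by their TRα (-/-) change, which is a term of the interaction and favours stronger TRα (-/-) responses in these shares. Scaling by total counts alone moved the median interaction over all genes by -0.42, and then 722 upregulated and 277 downregulated genes had weaker responses.

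The groups with a stronger response in TRα (-/-) were chosen by the interaction, which fixes much of their wild type change, and their values are given as a description. The 81 genes with a stronger rise in TRα (-/-) had a median log2 change of 1.35 there and of -0.97 in wild type, and 3 of them were also called upregulated in wild type. The 252 genes with a stronger fall had medians of -1.54 and 0.16, and 16 were also called downregulated in wild type. When only genes with at least 10 counts in every library were tested, the 2 groups held 50 and 162 genes.

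**Figure D3:**
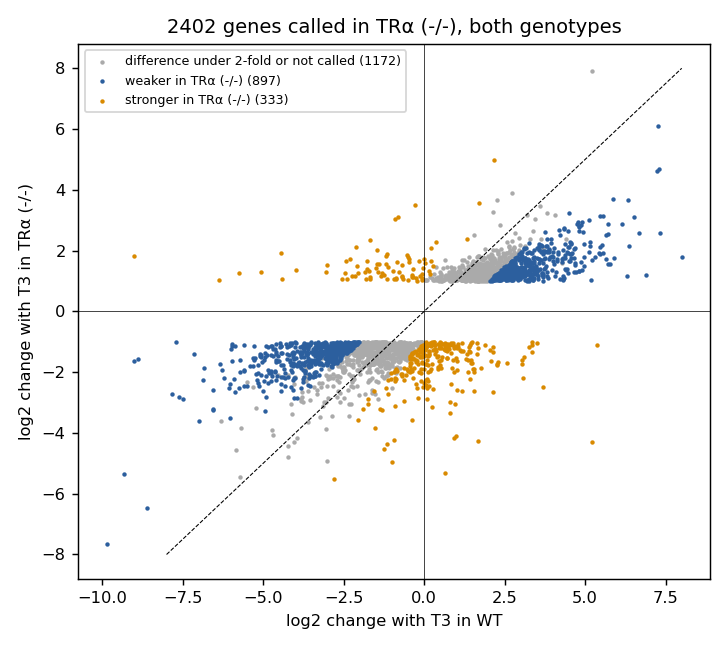
Log2 change with T3 in TRα (-/-) (vertical axis) against that in wild type (horizontal axis) for the 2402 genes called in TRα (-/-), with a dashed line of equal changes. Blue points are genes with a response at least 2-fold weaker in TRα (-/-) by the interaction test, orange points those with a stronger response, and most orange points lie near the vertical line at 0 or on its far side.

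The order of the 4 group means shows where the TRα (-/-) pools lay relative to wild type. For 606 (59.3%) of the 1022 upregulated genes, both TRα (-/-) means lay between the wild type means, with the untreated pool above untreated wild type and the treated pool below treated wild type. In another 176 (17.2%) the order from lowest to highest was untreated TRα (-/-), untreated wild type, treated TRα (-/-) and treated wild type. In 119 (11.6%) it was untreated wild type, untreated TRα (-/-), treated wild type and treated TRα (-/-). For the 1380 downregulated genes the enclosed order was found in 504 (36.5%). There treated wild type was lowest and untreated wild type highest, with treated and then untreated TRα (-/-) between them. In 307 (22.2%) the order from lowest to highest was treated wild type, treated TRα (-/-), untreated wild type and untreated TRα (-/-). In 215 (15.6%) it was treated TRα (-/-), treated wild type, untreated TRα (-/-) and untreated wild type. In 145 (10.5%) it was treated TRα (-/-), treated wild type, untreated wild type and untreated TRα (-/-). These orders include differences of any size and were not tested. They were taken on the TMM scale alone, and their shares over all genes tested are not given here. The TMM factors were 1.317 to 1.353 for treated wild type and 0.8542 to 0.956 for the other groups. Scaling by total counts alone moved the median log2 change in wild type by 0.54, so the orders could depend on the scaling.

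Part of the downregulation came from genes that were highest in the untreated TRα (-/-) pool, at least 2-fold above each other pool. A pool was counted as apart above the others when its mean was at least 1 CPM and 2-fold above each of the other 3 pools and its libraries did not overlap with theirs. The untreated TRα (-/-) pool stood apart in this way for 164 genes, 1.15% of those tested. The definition sets them 2-fold above the treated TRα (-/-) pool, so all 164 are among the downregulated genes, of which they make up 11.9%. Their median level was 7.19 CPM in untreated TRα (-/-), 1.79 CPM with T3, and 1.4 and 1.26 CPM in wild type without and with T3. With T3, 127 of the 164 lay within 2-fold of untreated wild type. The rule holds both of these pools at least 2-fold below untreated TRα (-/-), which favours such a match. The share over all genes is not given here. The untreated TRα (-/-) level was 5 CPM or more for 95 genes, and for 15 it was at least 8-fold above both wild type pools. The log2 changes with T3 ran from -5.51 to -1.0 with a median of -1.75. In wild type, 72 of these genes were called in either direction, where 22.8% of all genes tested were upregulated and 25.1% downregulated. In 2 of the 164 the exons overlapped another gene.

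The other cases of a TRα (-/-) pool apart were few. For a pool 2-fold below the others, each of the other 3 means had to be at least 1 CPM. The pool itself had no such floor, and its libraries again could not overlap with theirs. The untreated pool was 2-fold below the other 3 for 16 genes, the treated pool 2-fold above them for 17 and below for 18. The 17 genes had medians of 3.06 CPM without T3 and 6.74 CPM with T3, and 2.16 and 1.71 CPM in wild type. The wild type pools stood apart for more genes. Untreated wild type was below the other 3 pools for 994 genes (6.94% of those tested), which included 240 (23.5%) of the genes upregulated in TRα (-/-), and above them for 670 (4.68%), which included 214 (15.5%) of the downregulated genes. Treated wild type was below the other 3 pools for 904 genes (6.31%), including 167 (12.1%) of the downregulated, and above them for 237 (1.66%), including 70 (6.85%) of the upregulated genes. All counts of genes with a pool apart were taken on the TMM scale. Scaling by total counts alone moved the median log2 change in wild type by 0.54, and the counts were not taken again under it. Since each pool is 1 preparation, a gene high in untreated TRα (-/-) hind limb cannot be told apart from a gene high in that pool.

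**Figure D4:**
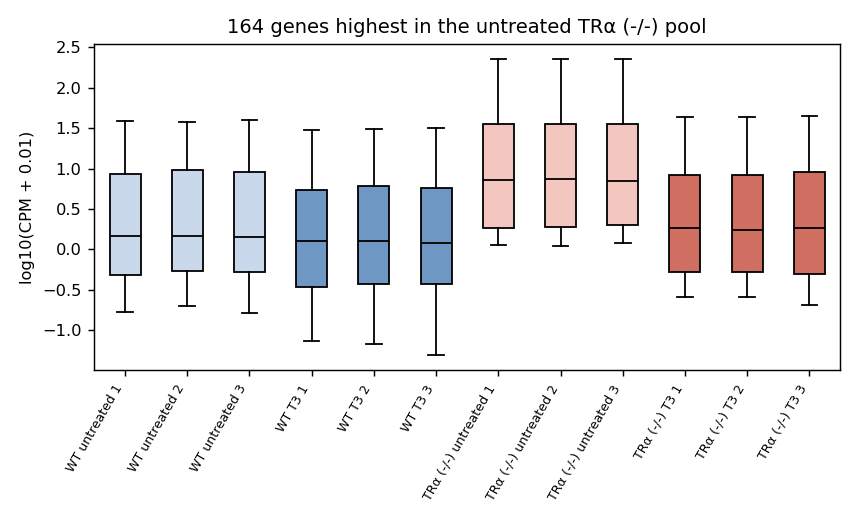
Level of the 164 genes that were highest in the untreated TRα (-/-) pool, as log10(CPM + 0.01), in each of the 12 libraries; boxes span the quartiles with a line at the median and whiskers run from the 5th to the 95th percentile of genes. The 3 untreated TRα (-/-) libraries stand above the other 9, and those with T3 lie close to untreated wild type, as the choice of genes in part requires.

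Some called genes lay next to each other in the order of tested genes on the scaffolds. Untested genes between them were passed over and no limit was set on distance, so that a run of 4 genes on GL172859.1 spanned 1024105 bp. Each called gene was compared with the tested genes on either side, leaving out neighbours that overlap it. A gene beside 2 called genes was counted once for each, and 2 adjacent called genes were each counted as the other's neighbour. Of the 2376 neighbour positions of downregulated genes, 342 (14.4%) held a downregulated gene and 5.85% an upregulated gene. The share of downregulated genes among all genes tested was 9.64%. Of the 1742 neighbour positions of upregulated genes, 170 (9.76%) held an upregulated gene, against 7.14% of all genes tested, and 7.98% a downregulated gene. Runs of at least 3 tested neighbours called in the same direction numbered 30, of which 22 were downregulated and 8 upregulated, and they held 98 genes on the 1778 scaffolds with tested genes. Overlapping genes were not left out of the runs. In 4 of the 30 runs, exons of members overlapped those of another gene. With at least 10 counts required in every library, 18 runs were left. The handling of reads with several matches is not given in the sources used here, so counts of neighbours with similar sequence are uncertain.

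The run with the most members held 5 downregulated genes on GL172699.1 between 553086 and 689625. Their log2 changes in TRα (-/-) ran from -1.59 to -1.03, and their wild type median was -4.73. The second of the 5, the most abundant, had 51.5, 52.1 and 54.2 CPM without T3 and 24.1, 23.5 and 23.7 CPM with it, where wild type went from 99.1 to 4.61 CPM. Its fall was thus weaker in TRα (-/-), with an interaction of 3.29 (adjusted p = 2.01e-24). An upregulated run of 4 genes on GL172638.1 between 857064 and 960934 included ENSXETG00000025116, described above. The 4 genes had log2 changes from 1.1 to 2.12, and the largest was that of a gene with 18.6, 16.2 and 15.8 CPM without T3 and 73.1, 74.9 and 71.2 CPM with T3. In wild type this neighbour went from 10.0 to 224 CPM, a log2 change of 4.48.

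Several runs had members that were highest in the untreated TRα (-/-) pool by this rule of 2-fold. On GL172646.1 between 5124826 and 5156897, 4 neighbouring tested genes fell with log2 changes from -5.33 to -3.06, and 3 of them belong to the 164 genes above. The first had 18.06, 17.99 and 17.17 CPM in the untreated TRα (-/-) libraries and 0.445, 0.423 and 0.449 CPM with T3. In wild type it was at 0.210 and 0.331 CPM, so it was well expressed in 1 of the 4 pools. The other 3 were scarce, between 0.853 and 1.42 CPM on average without T3. On GL173479.1 between 167536 and 242211, all 3 members of a run belong to the 164 genes, with log2 changes from -3.86 to -2.73. The first of these had 33.3, 31.8 and 30.5 CPM without T3 and 2.42, 2.24 and 1.83 CPM with T3. In wild type it was lower and also fell, from 5.93 to 0.696 CPM. On GL173333.1 between 466189 and 484256, all 4 members of a run were of this kind, and 3 of them are single-exon genes of 68, 76 and 78 bp. The 68 bp gene had 5.79, 6.14 and 6.69 CPM without T3 and 0.593, 0.622 and 0.416 CPM with T3. Genes this short are shorter than a sequenced read, and their counts are uncertain.

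In 4 runs the wild type median had the opposite sign. For the run on GL172646.1 that sign is uncertain, since its genes had wild type means of 0.0296 to 0.331 CPM. Their wild type changes had adjusted p from 0.0839 to 0.348 in edgeR. The clearest of the 4 was an upregulated run of 3 genes on GL173192.1 between 602540 and 703636, with a median log2 change of 1.31 in TRα (-/-) and of -4.44 in wild type. Its middle gene had 2.30, 2.63 and 3.22 CPM in TRα (-/-) without T3 and 5.44, 5.72 and 6.18 CPM with T3, where wild type fell from 34.6 to 1.58 CPM. Untreated wild type was the high pool for these genes, and both TRα (-/-) pools were low. The interaction of the middle gene was 5.50 (adjusted p = 3.69e-21).

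The 13 protein-coding genes of the mitochondrial DNA could be named, because their positions in the file match those of the annotated mitochondrial genes exactly. They encode subunits of the respiratory chain, namely ND1 to ND6 and ND4L of NADH dehydrogenase, CYTB of the cytochrome bc1 complex and COX1 to COX3 of cytochrome c oxidase, and ATP6 and ATP8 of the ATP synthase. They are transcribed as long precursors from the mitochondrial genome, which is separate from the nucleus. In TRα (-/-) all 13 were lower with T3 by the adjusted p alone, as were 37.9% of all genes tested, and 0 passed 2-fold. Their log2 changes ran from -0.73 for COX1 to -0.18 for ND3. All libraries with T3 lay below all those without it for 11 of the 13, as for 38.0% of all genes tested. In all, 23 genes of the mitochondrial sequence were tested, 10 of them not named here. At 2-fold, 2 of the 23 (8.7%) were downregulated and 0 upregulated, against 9.64% and 7.14% of all genes tested.

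Of the cytochrome c oxidase subunits, COX1 was at 8346, 8274 and 7813 CPM without T3 and at 5078, 5063 and 4616 CPM with T3, a log2 change of -0.73 (SE 0.0354, adjusted p = 8.42e-16) or 39.6% less. COX3 was at 7336, 7278 and 6845 CPM without T3 and at 5177, 5167 and 4606 CPM with it (log2 change -0.52). COX2 was at 5972, 5749 and 5233 CPM and then at 4405, 4521 and 3744 CPM (log2 change -0.42). For each of the 3 subunits the highest treated library lay below the lowest untreated one. Per kilobase of gene, the untreated level was highest for COX3 at 9124 CPM, followed by COX2 at 8214 and COX1 at 5231. CYTB was at 2074, 2119 and 1922 CPM without T3 and at 1499, 1504 and 1307 CPM with T3 (log2 change -0.50, SE 0.0496, adjusted p = 1.12e-09), again with no overlap.

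The ATP synthase and NADH dehydrogenase subunits were lower as well. ATP8 was at 243, 243 and 192 CPM without T3 and at 159, 164 and 127 CPM with T3 (log2 change -0.59, adjusted p = 2.34e-06). ATP6 had a log2 change of -0.37, which was -0.24 without replicate 3 of TRα (-/-) with T3. Among the NADH dehydrogenase subunits, ND4L was at 119, 123 and 115 CPM without T3 and at 78.3, 72.2 and 76.2 CPM with T3 (log2 change -0.66, adjusted p = 5.9e-13). ND1, ND2, ND4 and ND5 had log2 changes between -0.51 and -0.45. The groups overlapped for the remaining ND3 and ND6. ND3 was at 356, 360.1 and 303 CPM without T3 and at 327, 310.4 and 261 CPM with T3, and its log2 change of -0.18 (adjusted p = 0.0234) did not pass under total counts alone (-0.06, adjusted p = 0.421) or in DESeq2 (-0.18, adjusted p = 0.127). It was also lost without replicate 1 of untreated TRα (-/-) (-0.14, adjusted p = 0.103), replicate 2 of it (-0.14, adjusted p = 0.132) or replicate 3 of TRα (-/-) with T3 (-0.08, adjusted p = 0.262). With the replicate number as a block in edgeR, ND3 passed (-0.18, adjusted p = 0.00104). ND6 is the only 1 of the 13 encoded on the minus strand. It had low counts in these libraries of poly-A RNA, at 5.23, 4.62 and 7.49 CPM without T3 and 5.19, 2.86 and 2.72 CPM with T3. Its log2 change of -0.68 was -1.06 without replicate 1 of TRα (-/-) with T3, and -0.43 (adjusted p = 0.0519) without replicate 3 of untreated TRα (-/-). ATP8 with ATP6, ND4L with ND4, and ND5 with ND6 share bases, so the split of their counts is uncertain.

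Wild type differed from TRα (-/-) in these mRNAs. There 11 were higher with T3 and 2 lower by the adjusted p alone, which 42.9% and 45.9% of all genes were. At 2-fold 4 were called upregulated, against 22.8% of all genes. The 2 that were lower, COX1 (-0.53) and COX3 (-0.33), were not when libraries were scaled by total counts alone, which gave 0.01 (adjusted p = 0.727) for COX1 and 0.20 (adjusted p = 1.1e-05) for COX3. The interaction was negative for 13 of 13 by the adjusted p alone, as for 38.1% of all genes. At 2-fold it was called negative for 8, against 16.6% of all genes. It ran from -2.13 for ATP8 and -2.10 for ND6 to -0.20 for COX1 and -0.19 for COX3, and its sign was negative for all 13 under TMM, DESeq2 size factors and total counts alone. The untreated TRα (-/-) pool had the higher start. ATP8 was at 63.5 CPM in untreated wild type and at 226 CPM in untreated TRα (-/-), and with T3 the 2 genotypes were at 184 and 150 CPM.

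All genes of the mitochondrial sequence together took 2.94%, 2.86% and 2.6% of the counts in untreated TRα (-/-) libraries and 2.18%, 2.22% and 1.96% with T3. The means of 2.80% ± 0.175 and 2.12% ± 0.142 (SD, n = 3) differ by -0.681 percentage points, with p = 0.1 in an exact two-sided permutation test, the smallest p that 3 against 3 libraries can give. In wild type the share went from 1.56% ± 0.0193 to 2.47% ± 0.178. The 100 most abundant genes took 56.05% to 57.08% of the counts in untreated TRα (-/-) and 51.69% to 52.2% with T3, and in wild type 54.89% to 55.07% and then 36.71% to 37.73%. With the 100 most abundant nuclear genes left out of the total, the mitochondrial share was 6.45%, 6.36% and 5.88% in untreated TRα (-/-) libraries and 4.47%, 4.52% and 3.99% with T3, a difference of -1.9 percentage points, so it was lower with T3 by either total. In wild type the share of this smaller total was 3.249%, 3.321% and 3.273% without T3 and 3.803%, 3.975% and 3.448% with T3. The wild type rise was thus smaller than by the whole total. On the TMM scale the summed mitochondrial CPM changed by -30.5% in TRα (-/-) and by 8.88% in wild type. With libraries of a pool summed and a BCV of 0.2 assumed between pools, 0 of the 13 mRNAs passed the adjusted p in TRα (-/-).

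**Figure D5:**
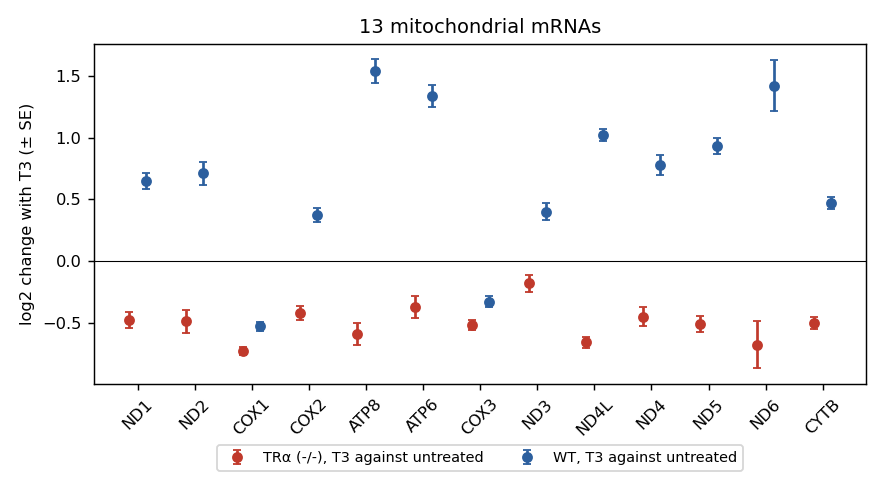
Log2 change with T3 (vertical axis, ± SE from the fit) of the 13 mitochondrial mRNAs in TRα (-/-) (red) and wild type (blue), in their order along the mitochondrial DNA. The 13 red points lie between -0.73 and -0.18, while 11 of the blue points lie above 0 and those of COX1 and COX3 below it, which total counts alone put at 0.01 and 0.20.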

How the data were processed

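TruSeq libraries of poly-A RNA were sequenced with paired ends by the authors, who mapped the reads with STAR to the Ensembl JGI 4.2 genome and ran featureCounts for each gene. The submitters' processing notes name STAR 2.5.3a and featureCounts 1.4.6-p3, while the paper's methods give other versions of both tools, and which were run is unknown. Strand and multiple matches are not given in the sources used here. The deposited table holds raw read counts without normalization, beside exon positions and exon length. All columns were matched to libraries by name.

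In R 4.3.3, edgeR 4.0.16 (TMM, filterByExpr, glmQLFit, glmQLFTest) was fitted to all 12 libraries with 1 mean per group and no block, and p-values were adjusted by Benjamini-Hochberg over 14320 genes. The common BCV was 0.0421. Of 19921 genes, 2363 had 0 counts throughout. SEs come from the fitted model. Genes at 3 counts or fewer over a group were treated as at the floor. The mitochondrial share was compared by an exact permutation test.

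The genes described by ID are the called genes with the largest log2 rise and fall (5 CPM or more in the higher group, no overlap between libraries) and the largest gain and loss of CPM among nuclear genes. The reference table, with 28858 entries, holds 0 of the file's IDs. Its 13 mitochondrial genes matched by start, end and length. Sequences were not analysed here. The comparisons, gene classes and lists were chosen with earlier results of these data known. Over all genes tested, replicate numbers did not pair the libraries, with correlations of same-numbered deviations from -0.052 to 0.0836. This does not cover the mitochondrial genes as a set. Their share of counts was lowest in replicate 3 of both TRα (-/-) groups and of treated wild type, but not of untreated wild type.

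Alternatives were DESeq2 1.42.0, its size factors, total counts alone, 2 other filters, a replicate block, the TRα (-/-) libraries alone, no fold threshold, a test against 2-fold, summed pools with an assumed BCV, and leaving out each library.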

Additional observations from a re-analysis of the deposited data

Results flagged for a closer look

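The T3 change in TRα (-/-) differed from that in wild type, by the interaction test in edgeR, for each of the 4 genes described by ID. At 2-fold, 17.7% of all genes tested had a more positive and 16.6% a more negative change in TRα (-/-). By the adjusted p alone, 5649 and 5461 of 14320 genes did. The 4 genes were chosen as extremes of the TRα (-/-) change, which is a term of the interaction. The interaction was -1.16 for ENSXETG00000007358, 2.18 for ENSXETG00000015190, -1.86 for ENSXETG00000025116 and 1.78 for ENSXETG00000002211. The first 2 of these rest on low counts in both genotypes, without T3 for ENSXETG00000007358 and with T3 for ENSXETG00000015190.

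The same test picked out all 13 mitochondrial mRNAs by the adjusted p alone, each more negative in TRα (-/-), as were 38.1% of all genes. The interaction was -1.13 for ND1, -1.19 for ND2, -0.58 for ND3, -1.23 for ND4, -1.67 for ND4L, -1.44 for ND5 and -2.10 for ND6, all subunits of NADH dehydrogenase. It was -0.98 for CYTB, -0.20 for COX1, -0.79 for COX2, -0.19 for COX3, -1.71 for ATP6 and -2.13 for ATP8. These mRNAs come from shared precursors and are not independent of each other.

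The mean share of counts on mitochondrial genes with T3 minus that without was -0.681 percentage points in TRα (-/-) and 0.909 in wild type. With the 100 most abundant nuclear genes left out of the total, the wild type rise was smaller. The difference between genotypes was not tested.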

How the results depend on the processing

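The calls rest on libraries of 1 pool per group, so the assumed spread between pools moves them most. With pools summed and a BCV of 0.2, the counts were 703 genes raised and 861 lowered in TRα (-/-), 1179 with a more positive and 1105 with a more negative interaction, 193 raised and 196 lowered genes with a weaker response than wild type, 35 and 94 with a stronger one, 12 runs of neighbours and 0 mitochondrial mRNAs lower, and the calls of ENSXETG00000025116 (adjusted p = 0.0599) and ENSXETG00000002211 (adjusted p = 0.0838) were lost. With a BCV of 0.4, they were 8 raised, 21 lowered, 30 and 41 by interaction, 0 and 0 weaker, 0 and 2 stronger, 0 runs and 0 mitochondrial mRNAs. A test against 2-fold gave 672 raised, 756 lowered, 266 and 235 weaker, 27 and 98 stronger, 8 runs and 0 mitochondrial mRNAs. The adjusted p alone gave 5308 raised, 5430 lowered, 5649 and 5461 by interaction, 2843 and 2830 weaker, 1450 and 1467 stronger, and 975 runs. These settings change the threshold or the spread by construction.

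Scaling by total counts alone moved the median log2 change by 0.12 in TRα (-/-), by 0.54 in wild type and by -0.42 for the interaction, and gave 1334 raised and 1086 lowered genes, 1523 more positive and 3910 more negative interactions and 722 raised and 277 lowered genes with a weaker response. It ended the call of ENSXETG00000002211 (-0.93), as did the test against 2-fold (adjusted p = 0.0825). At least 10 counts in every library gave 50 and 162 stronger responses and 18 runs. The mitochondrial share outside the 100 most abundant nuclear genes changed by -1.9 percentage points. The causes were not tested.

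DESeq2, its size factors, no filter on low counts and the TRα (-/-) libraries alone kept each count that they could give within 1.5 times, and DESeq2 gave 12 mitochondrial mRNAs lower. With the replicate number as a block there were 1026 raised and 1382 lowered genes, 2532 and 2371 interactions, 422 and 478 weaker and 82 and 253 stronger responses, 13 mitochondrial mRNAs and 30 runs, so the block moved no count by over 1.5 times. It did lower the adjusted p of mitochondrial mRNAs in edgeR, from 3.06e-05 to 3.48e-13 for ND2 and from 0.000684 to 4.53e-10 for ATP6. Leaving out each library gave 1027 to 1079 raised and 1362 to 1442 lowered genes, 2521 to 2565 and 2363 to 2411 interactions, 414 to 433 and 458 to 485 weaker, 81 to 97 and 241 to 272 stronger, 12 to 13 mitochondrial mRNAs, 29 to 35 runs, and a share difference of -0.78 to -0.601.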
